A study of Mus musculus with 102 samples.

Results

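The regions described here are 3941 stretches of the mouse genome that carried both H3K4me1 and H3K4me3, acetylated H3K27 and at least 13 of 17 measured chromatin factors in 129/Ola embryonic stem (ES) cells. They were chosen from the authors' deposited region table by those 4 criteria, and are called members below. They make up 5.82% of the 67697 regions of the table, 21.4% of the 18425 regions with both H3K4 marks and 24.2% of the 16267 acetylated regions with both marks (95% Wilson interval 23.6% to 24.9%, counting error only). They are set against the other 12326 acetylated regions with both marks, at which 0 to 12 of the factors were listed. The marks, H3K27ac and the factor count chose the members, so their values are a description and were not tested.

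The series asked which chromatin regulators lie with H3K4me1 at mouse enhancers and which of them depend on it, by chromatin immunoprecipitation with sequencing (ChIP-seq) in 102 libraries. The factors and the marks that define the members were mapped in 129/Ola ES cells, grown on feeder cells and then passaged without them. Methylation of H3K4 was also mapped in R1 ES cells of strain 129SV, kept on mouse embryonic fibroblast feeders in serum-free medium. These R1 cells had the MLL3/4 double catalytic dead genotype or were wild type, with 2 libraries per mark and line in the labels. The labels give 2 libraries for 14 of the 17 factors, 3 for BAF155 and for SMC3 and 1 for SSRP1. The deposited tables hold 1 value per region or peak, so the spread between libraries and their depth are unknown, and no test between groups could be run. The labels do not say whether the catalytic-dead line is 1 clone, how far feeder cells contributed chromatin, or that libraries came from separate cultures. No gene annotation of the files' genome build (mm9) was used, so neither ES nor feeder marker genes were checked and members are given by position without gene names.

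H3K4me1 is laid down largely by MLL3 and MLL4, methyltransferases of the COMPASS family, and is the usual mark of enhancers. H3K4me3 is the usual mark of active promoters, and H3K4me2 lies at both. H3K27ac marks active elements of either kind, and a mutation that removes the catalytic activity of MLL3 and MLL4 leaves other H3K4 methyltransferases in place. The 17 factors cover remodellers of the BAF type (BRG1 is the ATPase and BAF155 a core subunit) and of the ISWI type (SNF2H is the ATPase, BAZ1A and WSTF are alternative partners). They also cover Mediator (MED1, MED12, SUR2), which bridges transcription factors and RNA polymerase II, and SMC3, a subunit of the cohesin ring. RUVBL1 and RUVBL2 are paired AAA+ ATPases of several remodelling complexes, and SSRP1 belongs to the histone chaperone FACT. PHF5A, SRSF1 and SRSF2 act in splicing, SAP18 belongs to histone deacetylase and exon junction assemblies, and PHRF1 carries PHD and RING fingers.

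The members thinned out towards the top of the factor count. There were 1453 members with 13 factors, 1170 with 14, 843 with 15, 432 with 16 and 43 with all 17, with a median of 14. Just outside the limit, 1575 acetylated regions with both marks had 12 factors. Regions with 13 factors had a median width of 1234 bp and a median H3K27ac log2 enrichment of 1.34, against 1205 bp and 1.35 at regions with 12 factors. Width and acetylation thus differed little across the limit.

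A factor was listed at a region when its log2 enrichment reached 0.585, which is a fold of 1.5, so a factor that is not listed was below that limit or not measured there. Each of 10 factors was listed at over 90% of members. SAP18 was listed at 97.8% of members and 72.7% of regions with fewer factors. SRSF2 followed at 97.2% of members against 76.8%, and RUVBL2 at 97.0% against 65.0%. SNF2H, the ISWI ATPase, was listed at 96.2% of members against 61.6% and PHRF1 at 96.1% against 60.8%. At the other end stood BRG1, listed at 59.8% of members against 21.4%, and WSTF, listed at 14.1% against 8.68%. The criterion of 13 factors raises every one of these shares, so they describe the choice and are not a finding.

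**Figure D1:**
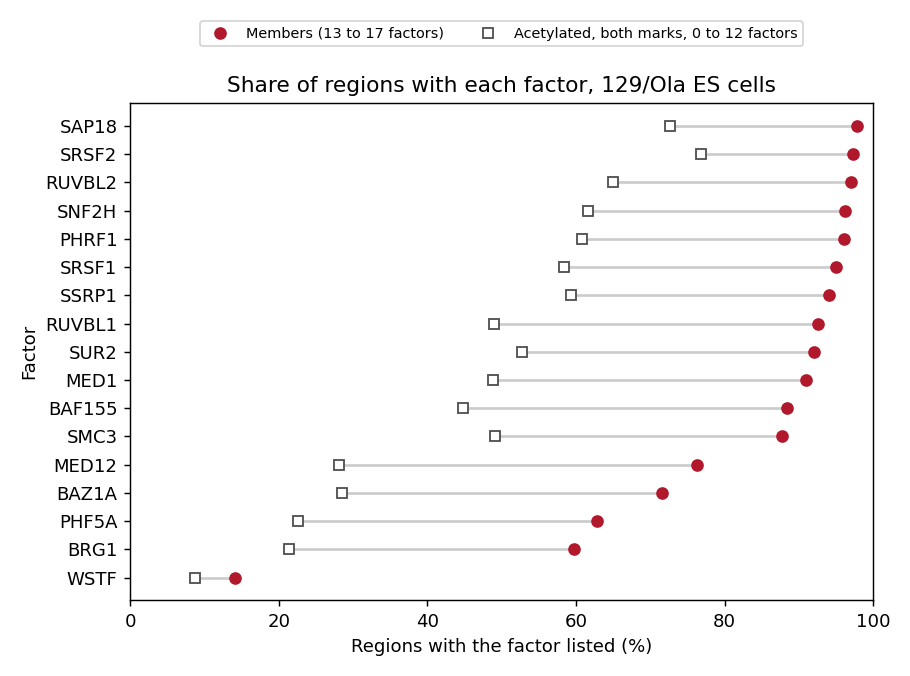
Percent of regions at which each of the 17 factors was listed (x axis) by factor (y axis), at members (filled circles) and at acetylated regions with both marks and 0 to 12 factors (open squares). SAP18 stands highest at members with 97.8% and WSTF lowest with 14.1%.

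The factors that members lacked were few. WSTF accounted for 29.6% of the 11440 absences over all members, and WSTF, BRG1, PHF5A, BAZ1A and MED12 together for 74.2%. Of the 432 members with 16 factors, 343 lacked WSTF, 19 lacked PHF5A, 18 lacked BRG1, 15 lacked BAZ1A and 10 lacked MED12, while RUVBL2 was listed at all of them. The 16 factors other than WSTF were all listed at 386 members, or 9.79%. WSTF itself was listed at 10.3% of members with 13 factors, 12.4% with 14, 15.3% with 15 and 20.6% with 16. By definition that share is 100% at 17 factors, so its rise describes the count and is not a finding.

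Partners of known complexes were not always listed together. BRG1 and BAF155 were both listed at 2021 members (51.3%, against 9.20% of regions with fewer factors), BAF155 without BRG1 at 1462 (37.1%), BRG1 without BAF155 at 335 (8.50%) and neither at 123. These classes differed in width. The median was 1111 bp with both subunits, 1765 bp with BAF155 alone, 613 bp with BRG1 alone and 851 bp with neither. SNF2H was listed with BAZ1A at 68.5% of members (19.7% with fewer factors) and with WSTF at 13.3% (5.64%). All 3 Mediator subunits were listed at 63.5% of members (8.96%), and Mediator with SMC3 at 55.7% (4.55%). RUVBL1 and RUVBL2 were listed together at 89.9% of members (36.8%), and SRSF1 with SRSF2 at 92.4% (47.1%). The criterion of 13 factors raises these joint shares at members too, so they describe the choice and are not a finding.

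Where a factor was listed, its median log2 enrichment was somewhat higher at members for 16 of the 17 factors. The same values decided the listing that chose the members, so these differences describe the choice and are not a finding. SSRP1 had the highest median, 1.30 at members and 1.07 at regions with fewer factors. SNF2H had 1.23 at members against 1.05, SAP18 1.21 against 0.97, SRSF2 1.20 against 0.95 and BRG1 1.16 against 1.04. MED12 was lowest with 0.93 against 0.87. WSTF was the exception, with 1.06 at members against 1.12. The largest difference of medians, 0.25 for SRSF2, is a fold of 1.19, and the quartile ranges of both groups overlapped for each factor.

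**Figure D2:**
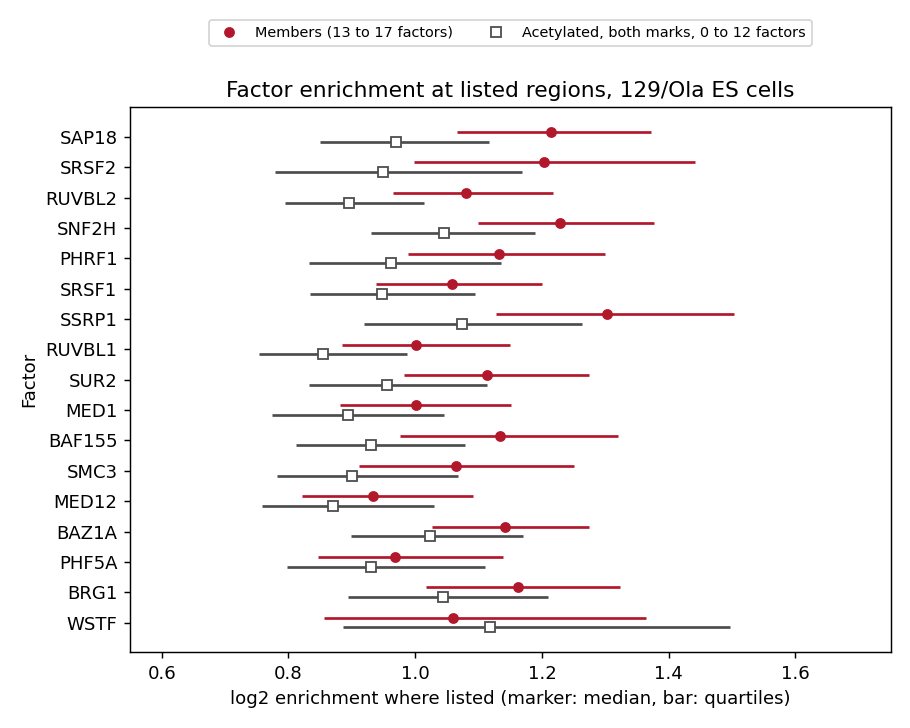
Log2 enrichment of each factor over the regions at which it was listed (x axis) by factor (y axis), as median (marker) and quartiles (bar), at members (filled circles) and at acetylated regions with both marks and 0 to 12 factors (open squares). Bars of both groups overlap for every factor, and WSTF alone has a lower median at members, 1.06 against 1.12. The listing that chose the members rests on these same values.

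Members spanned a median of 1250 bp (quartiles 673 and 2081 bp, widest 22700 bp), against 1137 bp (444 and 2537 bp) at regions with fewer factors. Their H3K27ac log2 enrichment had a median of 1.33 (quartiles 1.14 and 1.64), against 1.30 (1.05 and 1.65). Members were thus less spread in width but hardly more acetylated. Factor-rich acetylated regions with 1 H3K4 mark differed from members in some of these values. The 1103 regions with H3K4me3 only and at least 13 factors had a median width of 1569 bp and an H3K27ac log2 enrichment of 2.13, and the 229 with H3K4me1 only had 377 bp and 1.47. BAZ1A was listed at 71.6% of members, 57.5% of factor-rich regions with H3K4me3 only and 85.6% of those with H3K4me1 only. BRG1 was listed at 59.8% of members and 72.9% of factor-rich regions with H3K4me1 only, but BAF155 at 88.4% of members and 65.5% of those regions. At factor-rich regions with H3K4me3 only, the shares were near the members', 58.1% for BRG1 and 90.3% for BAF155. All these regions had to hold at least 13 factors, which ties the shares of their factors together, and its part in these differences was not tested.

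Among members, narrow regions had the higher factor enrichment. Spearman's rho of width with the mean log2 enrichment of the listed factors was -0.54 over 3941 members, which share libraries. The median of that mean was 1.25 for the 986 narrowest members (up to 673 bp), 1.13 for the next 985 (up to 1250 bp), 1.09 for the next 987 (up to 2081 bp) and 1.03 for the 983 widest. The number of factors did not follow width (rho -0.003) or H3K27ac (rho 0.03), and mean factor enrichment followed H3K27ac weakly (rho 0.18). The enrichments of all 136 factor pairs had a positive rho over members, between 0.17 and 0.51 with a median of 0.36. The highest was that of RUVBL1 with RUVBL2, and SSRP1 with PHRF1 reached 0.49. How far width and shared input libraries enter these correlations was not tested.

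The 43 members with all 17 factors lay on 18 chromosomes and were narrower than members at large, with a median of 962 bp (206 to 3066 bp). Their H3K27ac log2 enrichment had a median of 1.42. The one with the highest mean factor log2 enrichment, 1.88, was chr19:11166737-11166942 (mm9), only 206 bp wide, where SSRP1 had a log2 enrichment of 2.92, RUVBL2 2.57, MED1 2.21 and WSTF 0.99. The next were chr11:48901570-48902142 with a mean of 1.61 and SRSF2 at 2.53, and chr15:78821346-78821620 with 1.59 and PHRF1 at 2.30. At chr8:72350140-72350499 the mean was 1.59 and BAF155 led with 1.91, and at chr15:87374427-87375720 BAF155 again led with 1.98. No factor led at all 5.

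The 3 members with the strongest acetylation had 13 to 16 factors, while median H3K27ac log2 enrichment over members was 1.34 at 13 factors, 1.31 at 14, 1.35 at 15, 1.37 at 16 and 1.42 at 17. The H3K27ac log2 enrichment was 4.31 at chr9:72487511-72487899, which lacked WSTF alone. It was 4.13 at chr2:30924404-30925583, which had 14 factors, and 4.04 at chr12:77330522-77331427, which had 13. The member on chromosome 12 lacked BAF155, BAZ1A, WSTF and RUVBL1 and had SMC3 as its most enriched factor, with 2.01. The 3 widest members, chr5:123581582-123604281, chr10:79603758-79625447 and chr11:97518952-97540259, each had 13 factors and all lacked BRG1, BAZ1A and WSTF. Their H3K27ac log2 enrichments were 2.58, 2.84 and 2.92, while their mean factor log2 enrichments were only 0.84, 0.99 and 1.08.

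The R1 tables give a measure that the choice of members did not use. R1 peaks were matched to members at an overlap of at least 1 bp, and each peak carries a fold enrichment in catalytic-dead and in wild-type cells. An H3K4me1 peak lay on 3661 members (92.9%, against 89.4% of regions with fewer factors), an H3K4me2 peak on 91.6% (85.2%) and an H3K4me3 peak on 85.5% (74.3%). All 3 marks had a peak on 3300 members (83.7%), H3K4me1 and H3K4me2 without H3K4me3 on 208, H3K4me1 alone on 152 and none on 173 (4.39%). Most members thus overlapped a peak of H3K4me1 and one of H3K4me3 in the R1 data too, while a small group had no H3K4me3 peak there.

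H3K4me1 on members was higher in the catalytic-dead line. Over 4265 peaks the median fold enrichment was 4.73 (quartiles 3.92 and 5.58) in catalytic-dead cells and 2.83 (2.43 and 3.26) in wild-type cells, so the quartile ranges did not overlap. Of these peaks 153 also touched a region with fewer factors and were counted in both groups. On the 13530 peaks of regions with fewer factors it was 4.06 in catalytic-dead cells and 3.01 in wild-type cells. The log2 ratio between catalytic-dead and wild-type enrichment had a median of 0.82 on members (95% interval over peaks 0.80 to 0.83, quartiles 0.44 and 1.08) and 0.47 on regions with fewer factors. The ratio was above 0 at 88.3% of member peaks and 72.1% of the others. The difference of 0.35 came with both a higher level in catalytic-dead cells and a lower one in wild-type cells. These intervals cover variation between peaks and not that between libraries. The value columns of the R1 tables appeared out of step with the positions and were put back in chromosome order. This order was inferred from the relation of width to enrichment. As deposited, the members' median would be -0.18. On chromosomes 1 and X, where both orders coincide and 199 and 46 member peaks lay, it was 0.93.

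By the authors' rule of size, a peak is increased at a ratio of 2 or above and decreased at 0.5 or below. H3K4me1 was increased at 1371 member peaks, or 32.1% (Wilson interval 30.8% to 33.6%), against 17.6% on regions with fewer factors and 15.2% of all 82053 peaks. It was decreased at 113, or 2.65%, against 6.06% and 28.4% of all peaks. The median log2 ratio over all H3K4me1 peaks was -0.21 (-0.13 for H3K4me2), and setting the H3K4me1 median to 0 would bring the members' median to 1.03 and the share increased to 52.1%. A pseudocount of 1 would lower that share to 10.9%. In the deposited layout, described above, 16.1% of member peaks were increased and 28.2% decreased, close to the shares of all peaks. Taken by chromosome, the median ratio on members lay between 0.67 and 0.99, and it was above that of regions with fewer factors on 20 of 20 chromosomes, by 0.06 to 0.54. The catalytic-dead level was higher on members on 20 chromosomes and the wild-type level lower on 19. Chromosomes share the same libraries and are not replicates, so counts of chromosomes, here and below, do not cover variation between libraries.

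**Figure D3:**
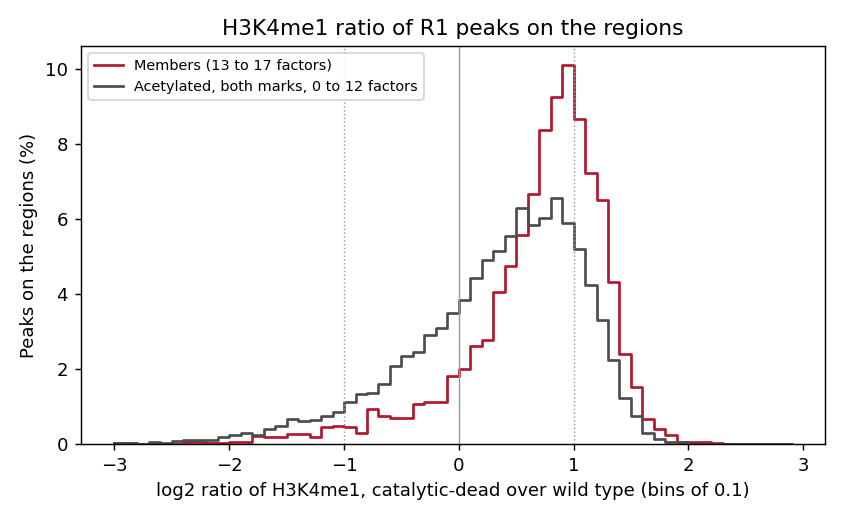
Percent of R1 H3K4me1 peaks (y axis) by their log2 ratio between catalytic-dead and wild-type cells in bins of 0.1 (x axis), for peaks on members and on acetylated regions with both marks and 0 to 12 factors; dotted lines mark a 2-fold ratio. The median is 0.82 for the members' peaks and 0.47 for those of regions with fewer factors. The curves are highest in the bins that start at 0.9 for members and 0.8 for regions with fewer factors.

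H3K4me2 shared this direction to a smaller extent and H3K4me3 did not. H3K4me2 had a median fold enrichment of 11.2 on members in catalytic-dead cells and 9.41 in wild-type cells, over 3701 peaks. On regions with fewer factors it was 7.34 in catalytic-dead cells and 7.16 in wild-type cells. Its median log2 ratio was 0.22 on members and 0.04 on the others, and it was above that of the others on 20 of 20 chromosomes. After quantile normalization the members' H3K4me2 median was 0.041. H3K4me2 was decreased at 87 member peaks (2.35%, against 7.60% on regions with fewer factors and 23% of all peaks) and increased at 42 (1.13%, against 1.05% and 1.91% of all peaks). H3K4me3 had 11.6 in catalytic-dead cells and 11.5 in wild-type cells over 3457 member peaks, with a median log2 ratio of -0.01 whose sign depended on the processing. Its peaks were decreased at 25 (0.723%, against 4.48% of all peaks) and increased at 22 (0.636%, against 3.15%). In level, members stood above regions with fewer factors for H3K4me2 and H3K4me3 in both lines, while in wild-type cells they stood below them for H3K4me1.

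**Figure D4:**
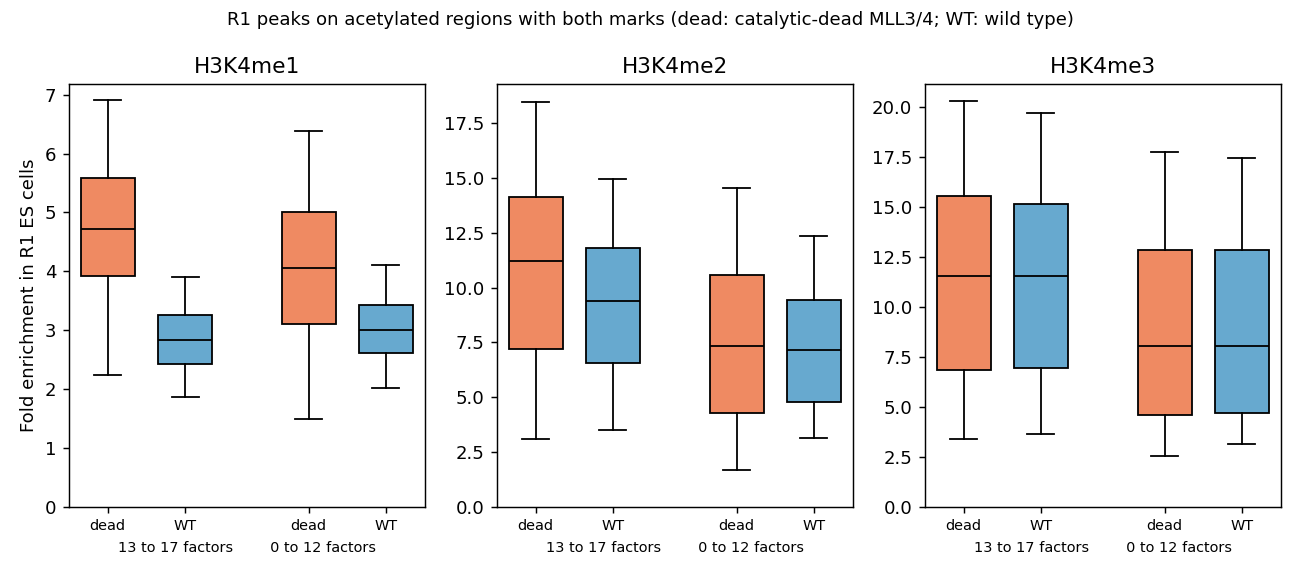
Fold enrichment (y axis, linear) of R1 peaks for H3K4me1, H3K4me2 and H3K4me3 in catalytic-dead (dead) and wild-type (WT) cells, on members (13 to 17 factors) and on acetylated regions with both marks and 0 to 12 factors; boxes show median and quartiles, whiskers the 5th and 95th percentiles. For H3K4me1 on members the boxes, with medians of 4.73 and 2.83, do not overlap, while the H3K4me3 boxes of both lines coincide.

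Position relative to promoters moved with these values. The authors' tables called 63.9% of H3K4me1 peaks on members proximal (Wilson interval 62.4% to 65.3%). The share was 48.4% on regions with fewer factors and 30.1% over all 82053 peaks. Members were more proximal than regions with fewer factors on 20 of 20 chromosomes. Among proximal peaks the median log2 ratio was 0.91 on members (fold enrichment 4.98 in catalytic-dead and 2.74 in wild-type cells) and 0.73 on regions with fewer factors. Among distal peaks it was 0.54 on members (4.20 in catalytic-dead and 2.99 in wild-type cells) and 0.17 on the others. The members' ratio was thus higher within either class, by 0.19 among proximal peaks. H3K4me1 was increased at 40.3% of proximal member peaks, against 27.2% on regions with fewer factors, and at 17.7% of distal ones, against 8.55%; the share over all peaks was 15.2%, close to that of distal member peaks. It was decreased at 0.624% of proximal member peaks, against 1.88%, and at 6.23% of distal ones, against 9.98%, where all peaks had 28.4%. The shares over all peaks take proximal and distal peaks together. For H3K4me2 the distal medians had opposite signs, 0.14 on members and -0.12 on regions with fewer factors. Weighting the regions with fewer factors to the members' widths left their median H3K4me1 ratio at 0.50 and their proximal share at 49.9%.

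The H3K4me1 ratio followed the number of factors from the middle of the range up. Its median over acetylated regions with both marks was 0.59 at 0 factors, 0.36 at 7, 0.37 at 9, 0.62 at 12, 0.73 at 13, 0.83 at 14, 0.86 at 15, 0.91 at 16 and 0.91 at 17, the last over 47 peaks. Regions with 0 factors, of which there were 149, thus stood above those with 7 to 9. Among distal peaks alone the median was 0.06 at 9 factors, 0.32 at 12, 0.46 at 13 and 0.68 at 16. Among proximal peaks it was 0.68 at 9, 0.80 at 12, 0.86 at 13 and 0.998 at 16. Wild-type H3K4me1 ran the other way, with a median fold enrichment of 2.88 at 13 factors, 2.72 at 16 and 2.41 at 17. The proximal share was 59.5% at 13 factors and 72.0% at 16, and the ratio differed less between 12 and 13 factors than between 9 and 10.

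**Figure D5:**
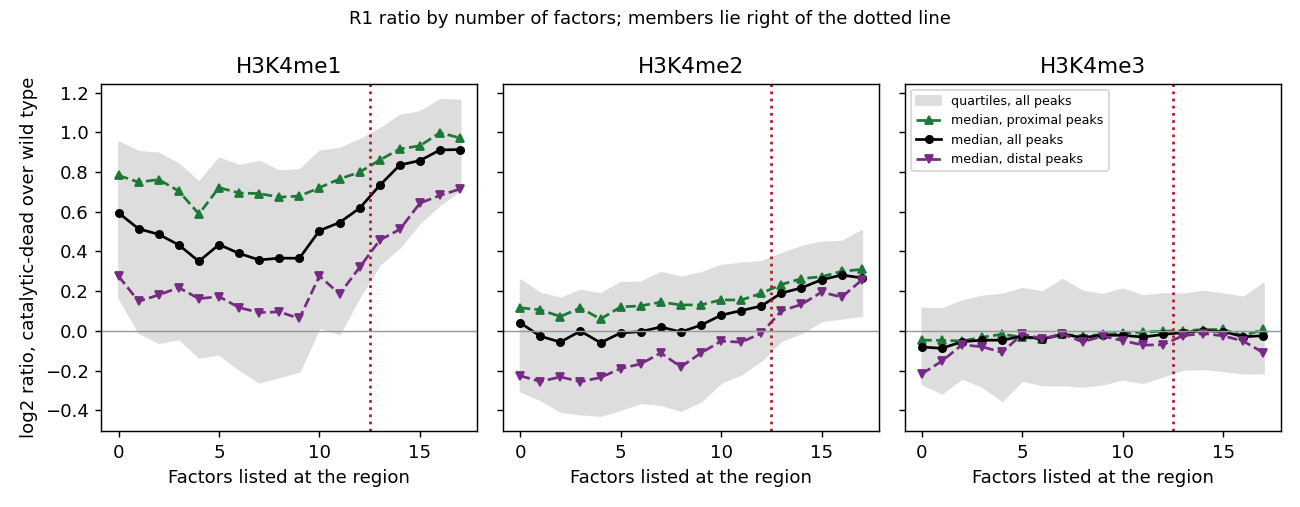
Median log2 ratio between catalytic-dead and wild-type R1 cells (y axis) by the number of factors listed at acetylated regions with both marks (x axis), for all peaks (black, quartiles in grey), proximal peaks (green) and distal peaks (purple). For H3K4me1 the median of all peaks is 0.37 at 9 factors and 0.91 at 16, and for H3K4me3 it stays near 0.

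Members can also be described by their own H3K4me1 ratio, using the peak with the longest overlap. The 1154 members in the increased class had a median width of 1432 bp and 77.8% of their peaks were proximal, 98.5% had an H3K4me3 peak, and wild-type H3K4me3 was high with a fold enrichment of 13.4. The 105 members in the decreased class stood apart from these. They had a median width of 469 bp, 14.3% proximal peaks, an H3K4me3 peak at 12.4% and an H3K4me2 peak at 48.6%. Their H3K27ac log2 enrichment was 1.74, against 1.25 in the increased class. H3K4me1 in the decreased class had a median fold enrichment of 1.25 in catalytic-dead and 3.43 in wild-type cells. The ratio that defines the class fixes the direction of these levels. H3K4me2 was decreased at 42 of the 51 with a peak, against 2.35% of member peaks and 23% of all H3K4me2 peaks. Over members the H3K4me1 and H3K4me2 ratios had a rho of 0.65, and how far the choice of the class enters this count was not tested. The remaining 2402 members lay between, with 53.2% proximal peaks and H3K4me1 at 4.43 in catalytic-dead and 3.03 in wild-type cells.

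The factor lists of these classes differed as well. PHF5A was listed at 80.0% of members in the decreased class and 61.5% in the increased class, BRG1 at 77.1% and 59.1%, and WSTF at 27.6% and 11.5%. SMC3 was listed at 68.6% of members in the decreased class and 91.2% in the increased class, RUVBL1 at 78.1% and 95.5% and BAF155 at 78.1% and 91.7%. The 87 members with an H3K4me1 peak that lacked RUVBL2 had a median log2 ratio of 0.13, against 0.82 at those with it, but 29.9% of their peaks were proximal against 60.6%. For SAP18 the 67 members without it had 0.47 against 0.82 with it. For BRG1 the medians were close, 0.80 with it and 0.83 without it. Position and width moved with these differences, and their part in them was not tested. The criterion of 13 factors also ties the factor lists together, because a member lacking some factors had to hold enough of the others. The mean number of factors was 13.8 in the decreased class and 14.3 in the increased class. How far the criterion and this number enter the differences above was not tested.

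Across members, H3K4me1 levels in the lines were nearly unrelated. Over 3661 members H3K4me1 had a Spearman's rho of 0.04 between catalytic-dead and wild-type cells, against 0.87 for H3K4me2 and 0.91 for H3K4me3. H3K4me1 followed H3K4me3 with a rho of 0.31 in catalytic-dead cells and -0.19 in wild-type cells, and H3K4me2 with 0.58 in catalytic-dead cells and -0.03 in wild-type cells. The H3K4me1 ratio ran against H3K27ac (rho -0.28 over 3449 members on chromosomes 2 to 19). Marks share cells, and a rho over members is no test between lines.

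The extremes were taken among member peaks whose mean H3K4me1 over both lines exceeded the median of all peaks; some member peaks below that limit had lower ratios than those named here. Within this limit the highest H3K4me1 ratio was at chr13:113441986-113442603, with a fold enrichment of 7.87 in catalytic-dead and 1.61 in wild-type cells, and H3K4me2 there was 13.3 in catalytic-dead and 4.41 in wild-type cells. The narrow 17-factor member chr19:11166737-11166942 came next, with H3K4me1 at 4.77 in catalytic-dead and 1.09 in wild-type cells, followed by chr10:86371508-86371884 with 5.22 in catalytic-dead and 1.21 in wild-type cells. All 3 were proximal and had peaks of all 3 marks. Within the same limit the lowest ratio was at the distal chr11:116761530-116763014, with H3K4me1 at 0.998 in catalytic-dead and 4.65 in wild-type cells and H3K4me2 at 0.587 in catalytic-dead and 3.55 in wild-type cells. Next within it were the proximal chr7:52785390-52785791, with H3K4me1 at 1.34 in catalytic-dead and 4.42 in wild-type cells, and the distal chr16:30113100-30113347, with 1.44 in catalytic-dead and 4.23 in wild-type cells. None of these 3 had an H3K4me3 peak in R1 cells, and their log2 H3K27ac enrichments were 1.89, 2.48 and 1.93, all above the members' median. The strongly acetylated chr2:30924404-30925583 had H3K4me2 at 3.47 in catalytic-dead and 7.54 in wild-type cells. The 3 widest members had H3K4me1 log2 ratios of 0.51, 0.36 and 0.28, and of the 40 members with all 17 factors and an H3K4me1 peak, 39 had a ratio above 0.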

How the data were processed

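Per the submitters' processing notes the build was mm9. They list Picard, Bowtie and MACS2, with no version, for 129/Ola libraries. For R1 libraries they list MACS2 2.1.0.20150731, BWA 0.7.13-r1126, deepTools 2.5.1 and 2.5.3 and Picard 2.11.0. What each tool did, and whether libraries were pooled, is not stated there. From 129/Ola cells the authors deposited a region table with log2 enrichment per factor, listed from 0.585 up, with H3K4me1 and H3K4me3 as presence; 11 of its 31 names matched no 129/Ola library and were not used. They also deposited 3 R1 peak tables whose values, per the file headers, are fold enrichment (ratio), 1 per line. What the enrichment is relative to and the distance that makes a peak proximal are not stated. The increased and decreased classes matched a ratio of 2 and 0.5 at every peak.

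The value columns of the peak tables appeared out of step with the positions, as if laid out in number order of chromosomes. This layout is an inference. They were put back in that order: over members on chromosomes 2 to 19, rho of width with wild-type fold enrichment was then 0.23, 0.54 and 0.52 for H3K4me1, H3K4me2 and H3K4me3, against 0.001, 0.006 and -0.007 as deposited.

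Regions and peaks were matched at 1 bp (pandas 2.3.3, numpy 2.4.6; overlaps tested on simulated data against bedtools 2.31.1). Log2 ratios had no pseudocount; a 0, found at 2 H3K4me2 values of the whole table, was set to the lowest positive value divided by 2. Median intervals are binomial order-statistic intervals, and shares have Wilson intervals. Positions are 1-based. Single regions named are those with all 17 factors and the highest mean (5), the highest H3K27ac and the largest widths (3 each), and the 3 largest H3K4me1 falls and rises among member peaks whose mean over both lines exceeded the table's median. Members, lists and settings were chosen with earlier results of these data known.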

Additional observations from a re-analysis of the deposited data

How the results depend on the processing

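No paired analysis was possible because the tables hold 1 value per peak and line, so same-numbered libraries could not be set against each other; for the same reason leaving out a library was not run. With a minimum of 12, 14, 15 or 16 factors the median H3K4me1 log2 ratio on members was 0.77, 0.86, 0.88 and 0.91, the share increased 29.4%, 35.2%, 37.5% and 41.4% and the proximal share 61.5%, 66.1%, 67.7% and 71.8%, and the H3K4me2 ratio 0.20, 0.24, 0.26 and 0.28. There were 2488, 1318 and 475 members at 14, 15 and 16 factors, and 93.9%, 95.2% and 95.2% had an H3K4me1 peak. Median H3K27ac was 1.36 at 15 factors and 1.38 at 16, and the H3K4me3 ratio at 16 was -0.030. Counting factors from a log2 enrichment of 1 left 855 regions, with a median width of 930 bp, H3K27ac of 1.44, ratios of 0.88 (H3K4me1), 0.27 (H3K4me2) and -0.025 (H3K4me3), 39.0% increased, 66.0% proximal and 89.4% with a peak.

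The deposited layout turned the direction for H3K4me1, with a ratio of -0.18 on members, and H3K4me2, with -0.080, but not for H3K4me3, with -0.037. In it 16.1% of H3K4me1 peaks on members were increased, against 15.2% of all H3K4me1 peaks. On members 28.2% of H3K4me1, 22.0% of H3K4me2 and 4.19% of H3K4me3 peaks were decreased in it. The shares over all peaks were close, 28.4%, 23% and 4.48%. The members' H3K4me1 ratio minus that of regions with fewer factors was -0.028 in this layout. If the restored order is right, that layout pairs most peaks with values of others. On chromosomes 1 and X, where both layouts coincide, the ratios (H3K4me1, H3K4me2 and H3K4me3, here and below) were 0.93, 0.32 and 0.044. There the H3K4me1 difference from regions with fewer factors was 0.39, and 42.9% of H3K4me1 peaks on members were increased and 68.2% proximal. That difference was 0.43 on chromosome 1 alone (199 member peaks) and 0.064 on chromosome X alone (46 member peaks).

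Among other settings, median centring gave ratios of 1.03, 0.35 and 0.024 with 52.1% increased, and quantile normalization 0.73 for H3K4me1 with 36.4% increased and a difference of 0.43, but 0.041 for H3K4me2. A pseudocount of 0.1 gave 0.80 with 29.1% increased, and 1 gave 0.64, 0.20 for H3K4me2, 10.9% increased and a difference of 0.27. Proximal peaks alone gave 0.91, 0.26 and 0.0014 with 40.3% increased and a difference of 0.19, and distal peaks alone 0.54, 0.14 and -0.031 with 17.7% increased. Counting 1 peak per region gave 60.2% proximal and a difference of 0.39, and requiring an overlap of 0.5 of the shorter interval 62.1% proximal with 91.3% of members having a peak. The H3K4me3 ratio was 0.0018 without the lowest peaks by level, and its difference from regions with fewer factors was -0.0057 at 16 factors, -0.00054 from a log2 enrichment of 1 and -0.0041 in the deposited layout. Leaving out peaks shared with regions of fewer factors, chosen after seeing the data, gave 0.83 for H3K4me1. The H3K4me1 ratio on members stayed above 0 in 16 of 17 alternatives, the deposited layout being the exception. Apart from chromosomes 1 and X, where both layouts coincide, the others kept the restored order, so this count cannot decide between layouts. The causes of these changes were not tested.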

Other observations

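Members were spread over the genome much as other acetylated regions with both marks. They made up 21.1% (chromosome 16) to 31.0% (chromosome X, 40 of 129 regions) of these regions on the 20 chromosomes, with a median of 24.5%. The nearest other acetylated region with both marks lay a median of 11517 bp from a member and 11669 bp from a region with fewer factors. The smallest such gap was 1002 bp in both groups, so no 2 of these regions lay closer. The nearest other member lay a median of 61077 bp away, and 20.4% of members had one within 10000 bp.

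Outside the rule, 138 regions with both marks and at least 13 factors had no H3K27ac listed. They make up 6.39% of the 2158 unacetylated regions with both marks. Their median width was 510 bp, against 1250 bp at members, and BRG1 was listed at 73.9% of them, against 59.8% of members. WSTF was listed at 18.1% and BAF155 at 80.4% of them. On their 118 R1 H3K4me1 peaks the median fold enrichment was 4.57 in catalytic-dead cells and 2.62 in wild-type cells. The median log2 ratio was 0.82 there and 0.82 on members, although fewer of their peaks were proximal (52.5% against 63.9%).

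Factor-rich acetylated regions with 1 H3K4 mark lay on either side of the members in the R1 comparison. On regions with H3K4me3 only the median H3K4me1 log2 ratio was 1.05 over 1610 peaks, and 55.4% were increased, against 15.2% of all H3K4me1 peaks. On regions with H3K4me1 only it was -0.75 over 157 peaks, and 36.9% were decreased, against 28.4% of all H3K4me1 peaks.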
